A study of Mus musculus with 9 samples.

Results

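Matrix metalloproteinases, the ADAMTS proteases and their tissue inhibitors were followed in mesenchymal stromal cells of mouse bone marrow, a single adherent line of connective-tissue lineage that the labels mark SV40. The genes are all rows of the deposited table named Mmp, Adamts or Timp plus a digit, which gave 46 of 21959 genes, made up of 23 Mmp, 19 Adamts and 4 Timp genes. The Adamtsl genes, relatives without a protease domain, were not counted among them. In the group TNBS PF the culture held peritoneal fluid (PF) for 24 h, taken from mice treated for 3 days with TNBS, a hapten used to induce colitis. In the group control PF the fluid came from control mice, and in the group PBS phosphate-buffered saline took its place. The medium of all 3 groups contained 10% serum, so PBS is not a serum-free state. Each group has 3 libraries of total RNA. Neither the strain and age of the donor mice nor whether fluid was pooled between donors stands in the sources used here. Nothing in the labels says that the libraries came from separate cultures, so the p-values measure the spread between these libraries, which may be technical.

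Matrix metalloproteinases (MMPs) are zinc proteases that cut collagens, gelatins, proteoglycans and many proteins of the cell surface. Most are made as inactive precursors and are secreted, while the membrane-type MMPs stay anchored to the cell. The ADAMTS proteases are secreted relatives with thrombospondin repeats that process procollagens, trim large proteoglycans such as aggrecan and versican, or act on microfibrils. The tissue inhibitors of metalloproteinases (TIMPs) bind the active sites of these enzymes. In stromal cells the balance of these groups sets how fast the surrounding matrix is turned over, and much of it is regulated after transcription, by activation of the precursors, which RNA levels do not show.

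Levels are given in FPKM, a fragment count divided by gene length and by the assigned fragments of the library. The libraries held 22.9 to 25.6 M assigned fragments in TNBS PF, 18.6 to 21.5 M in control PF and 17.9 to 20.3 M in PBS, so the depth moved with the group and was highest in TNBS PF. Its part in the results was not tested beyond the count-based fit named where it changes a call. All 10 stromal markers were expressed, and their summed level was 944 to 975 FPKM in TNBS PF, 1040 to 1065 FPKM in control PF and 1067 to 1143 FPKM in PBS. The summed level was thus lowest in TNBS PF, with no overlap with either other group, and was carried by Col1a1, Col1a2 and Ly6a. The 10 markers did not move together. Against control PF 2 rose and 4 fell, where 5.15% of all tested genes rose and 5.45% fell. Against PBS 2 rose and 5 fell, where 7.8% rose and 8.88% fell. Vcam1 was higher in every TNBS PF library than in any other, and Thy1 and Eng overlapped between the groups. In RNA of whole cultures, fewer cells of a type and less RNA per cell cannot be told apart. Of the 10 macrophage and monocyte markers, Cd14 and Cd68 reached 1 FPKM and Marco, C1qa and C1qb were listed at 0. Their sum was 16.3 to 18.2 FPKM in TNBS PF, 15.3 to 17.4 FPKM in control PF and 14.5 to 15.8 FPKM in PBS. The 10 mesothelial markers summed to 52.5 to 57.8 FPKM in TNBS PF, 46.0 to 47.5 FPKM in control PF and 47.7 to 48.5 FPKM in PBS, carried by Msln. Of the 10, 6 stayed under 1 FPKM in every library. Of the 4 tested, 3 rose in TNBS PF against either other group, where 5.15% (against control PF) and 7.8% (against PBS) of all tested genes rose. Slpi, also tested, was lower in every TNBS PF library than in control PF (4.83, 4.44 and 5.55 against 6.45, 5.79 and 5.87 FPKM). What part the lower stromal and higher mesothelial sums have in the results below was not tested. The 7 lymphocyte markers summed to at most 0.111 FPKM in any library and the 5 endothelial markers to at most 0.294 FPKM. The 5 chondrocyte markers summed to 3.64 to 5.09 FPKM over all libraries, carried by Sox9, and Acan was listed at 0. The 5 osteoblast markers summed to 5.29 to 6.17 FPKM, carried by Runx2.

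The cells expressed a narrow part of the 3 families. Of the 46 genes, 23 reached 1 FPKM in at least 3 of the 9 libraries and were tested, namely 9 of the 23 Mmp, 11 of the 19 Adamts and 3 of the 4 Timp genes. Of the inhibitors, Timp1 and Timp2 stood far above every protease, whereas Timp3 averaged 9.41 FPKM, below Mmp2 and Mmp14. Timp1 averaged 217 FPKM over the 9 libraries, at percentile 98.6 of the tested genes, and Timp2 147 FPKM, at percentile 97.7. The highest proteases were Mmp2 with 50.6 FPKM, and Mmp14. Of the Adamts genes Adamts4 was the highest, at percentile 53.0, so the whole Adamts family lay in the middle or lower part of the expressed genes. Among the 23 genes that were not tested, 5 were listed at 0 in every library (Mmp7, Mmp8, Mmp20, Mmp21 and Adamts18) and 19, these 5 included, stayed under 0.1 FPKM in every library.

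**Figure D1:**
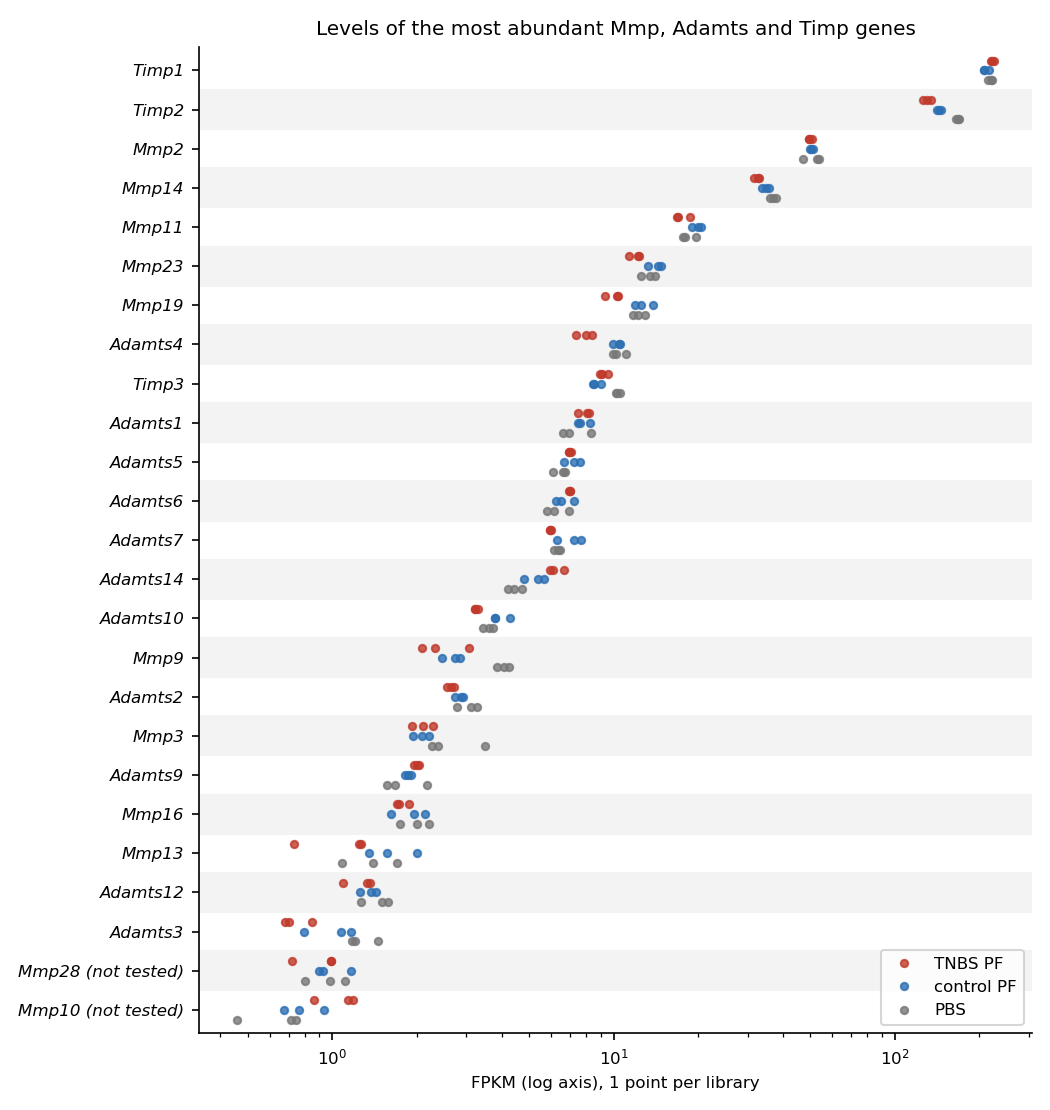
FPKM on a log axis (x) of the 23 tested Mmp, Adamts and Timp genes and of the 2 genes just outside the filter, Mmp28 and Mmp10 (y), with 1 point per library for TNBS PF, control PF and PBS. Timp1 and Timp2 lie above 100 FPKM in every library, and the genes from Adamts10 downwards lie under 5 FPKM.

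TNBS PF against control PF asks how fluid of the treated mice differs in effect from fluid of control mice. Of the 23 tested genes 7 fell and 0 rose at an adjusted p under 0.05 in TNBS PF against control PF, by limma with Benjamini-Hochberg adjustment over the 10537 tested genes. These 7 are 30.4% of the tested members, where 10.6% of all tested genes were called, 5.45% lower and 5.15% higher. The 7 were Adamts4, Mmp19, Timp2, Mmp23, Adamts10, Adamts7 and Mmp11, and none was more than 23.5% lower in mean FPKM. The median log2 difference of the 23 genes was −0.08, against −0.01 over all tested genes. In 13 of them the libraries of the 2 groups did not overlap, 10 lower and 3 higher in TNBS PF, where 31.8% of all tested genes did not overlap, 18.2% lower and 13.6% higher. The count depends on the filter and on single libraries. Without the filter on low values 3 of 41 family genes were called, where 784 of all 16193 genes were. Leaving out TNBS PF 1 gave 4 calls among the 23, where 691 of all 10537 genes were called. Leaving out TNBS PF 2 gave 2, where 661 of all were called, and leaving out control PF 2 gave 3, where 733 were. The full data gave 1117 over all genes. With median-ratio scaling or quantile normalization 1 gene was higher (Adamts14) and 6 were lower.

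Against PBS, TNBS PF compares the fluid of treated mice with no fluid. There 7 genes fell and 1 rose in TNBS PF (limma, adjusted p under 0.05), which is 34.8% of the 23, where 16.7% of all tested genes were called, 8.88% lower and 7.8% higher. Timp2, Adamts4, Mmp9, Mmp14, Mmp19, Adamts3 and Timp3 fell and Adamts14 rose. Adamts3 passed the filter through PBS and control PF libraries alone, which favours a fall. The median log2 difference was −0.12, against −0.01 over all tested genes, and 13 genes did not overlap, 11 lower and 2 higher, where 35.3% of all tested genes did not, 19.7% lower and 15.5% higher.

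Control PF against PBS asks what fluid of control mice did. There 3 genes fell and 0 rose in control PF, namely Timp2, Timp3 and Mmp9, which is 13.0% of the 23, where 2.15% of all tested genes were called, 1.14% lower and 1.02% higher. Leaving out either control PF 1 or control PF 2 gave 1 call, where 115 and 130 of all 10537 genes were called. The full data gave 227 over all genes. The median log2 difference was −0.01, against 0.00 over all tested genes, and 8 genes did not overlap, 6 lower and 2 higher, where 18.6% of all tested genes did not, 9.32% lower and 9.33% higher. The 3 comparisons share libraries pairwise, so their calls are not independent of each other. Over all 3 comparisons 12 genes were called at least once and 11 never, 7 in 1 comparison, 4 in 2 and Timp2 in 3. The share of all tested genes called at least once was not counted, so these numbers have no background to be read against.

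**Figure D2:**
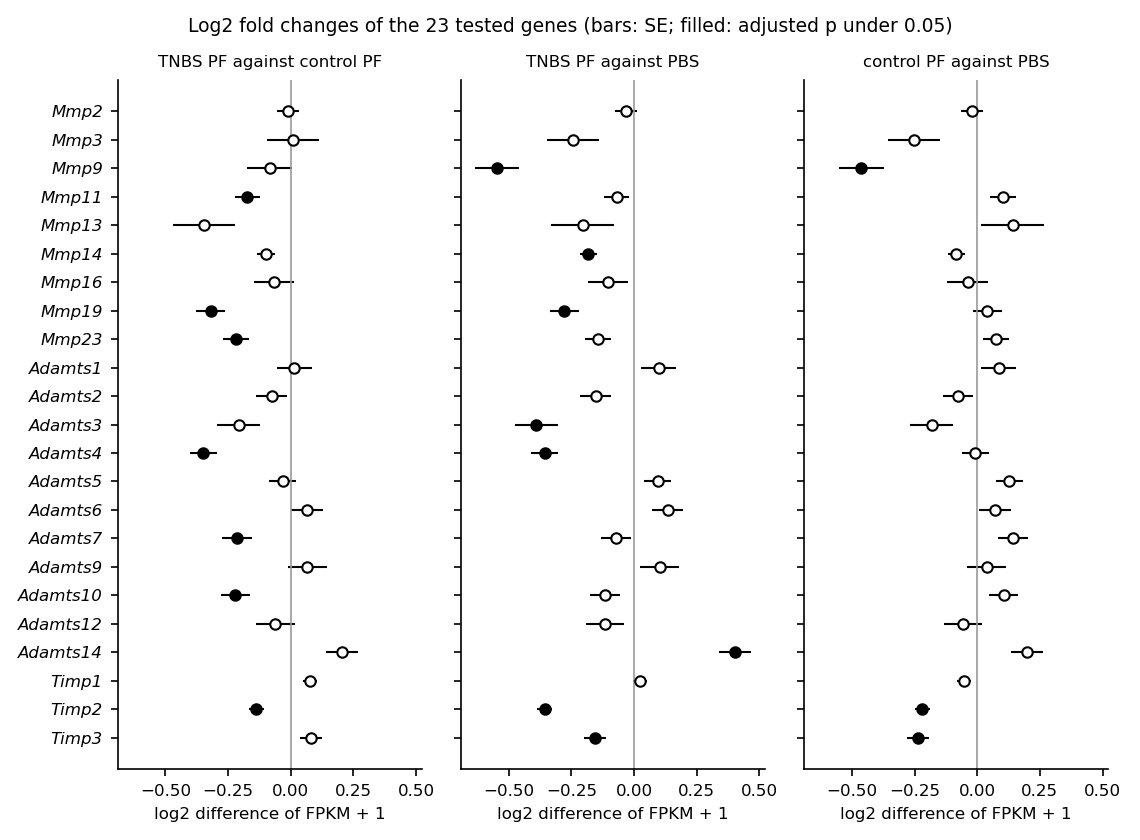
Log2 difference of FPKM + 1 (x) of each of the 23 tested genes (y) in TNBS PF against control PF, TNBS PF against PBS and control PF against PBS, with the SE from limma as bars and filled points for an adjusted p under 0.05. Most filled points lie left of 0, and Adamts14 in TNBS PF against PBS is the only filled point to the right of it.

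Among the inhibitors Timp2 fell in all 3 comparisons, Timp3 fell with either fluid against PBS and Timp1 passed in none. Timp2, which besides inhibiting MMPs joins MMP-14 at the cell surface in the complex that activates the precursor of MMP-2, lies on the minus strand at chr11:118301069-118355740 (mm10). It had 135, 126 and 131 FPKM in TNBS PF, 141, 144 and 146 FPKM in control PF and 168, 170 and 165 FPKM in PBS. The 3 groups did not overlap, with TNBS PF lowest and PBS highest. The log2 difference was −0.14 (SE 0.03, adjusted p = 0.00997) in TNBS PF against control PF, 9.14% lower in mean FPKM. It was −0.36 (SE 0.03, adjusted p = 7.88e-06) in TNBS PF against PBS and −0.22 (SE 0.03, adjusted p = 0.00213) in control PF against PBS. The call against control PF was lost without TNBS PF 2 (adjusted p = 0.0537).

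Timp3, an inhibitor that binds to the matrix and also blocks several ADAM and ADAMTS proteases, lies at chr10:86300372-86349506 on the plus strand. It had 9.60, 8.95 and 9.07 FPKM in TNBS PF, 8.49, 8.46 and 8.998 FPKM in control PF and 10.6, 10.3 and 10.2 FPKM in PBS. All 6 libraries with fluid were below the 3 PBS libraries, and the 2 fluids overlapped. Timp3 fell in TNBS PF against PBS (log2 difference −0.16, SE 0.04, adjusted p = 0.0288) and in control PF against PBS (−0.24, SE 0.04, adjusted p = 0.0139), and was 0.08 (adjusted p = 0.281) in TNBS PF against control PF. The first call was lost without TNBS PF 2 (adjusted p = 0.106), TNBS PF 3 (0.0929), PBS 1 (0.0815) or PBS 2 (0.0559), and the second without control PF 1 (0.0585) or control PF 2 (0.0583). Syn3 lies over Timp3 on the other strand and shares 1733 of its 8144 exon bases, but averaged 0.00522 FPKM.

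Timp1, a soluble inhibitor that is weak against several membrane-type MMPs, lies at chrX:20870166-20874735 on the plus strand. It had 222, 219 and 226 FPKM in TNBS PF, 216, 207 and 209 FPKM in control PF and 214, 220 and 221 FPKM in PBS. TNBS PF lay above control PF in every library, but the difference did not pass the test (log2 difference 0.08, SE 0.03, adjusted p = 0.101), and TNBS PF and PBS overlapped. Timp4 was listed above 0 in 1 library only, PBS 3, with 0.00835 FPKM.

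The 4 Timp genes summed to 355 to 366 FPKM in TNBS PF, 360 to 366 FPKM in control PF and 393 to 400 FPKM in PBS, so the sums of the 2 fluids overlapped below those of PBS. Timp1 and Timp2 together made up 97.3 to 97.7% of it in every library. The ratio of Timp1 to Timp2, chosen after the values were seen and given without a test, was 1.65, 1.73 and 1.73 in TNBS PF, 1.53, 1.44 and 1.43 in control PF and 1.27, 1.30 and 1.34 in PBS, with no overlap of the 3 groups. The 23 Mmp genes summed to 129 to 133 FPKM in TNBS PF, 140 to 144 FPKM in control PF and 138 to 148 FPKM in PBS. The 19 Adamts genes summed to 51.0 to 52.6 FPKM in TNBS PF, 52.6 to 57.4 FPKM in control PF and 50.4 to 54.2 FPKM in PBS, with overlap between every pair of groups.

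**Figure D3:**
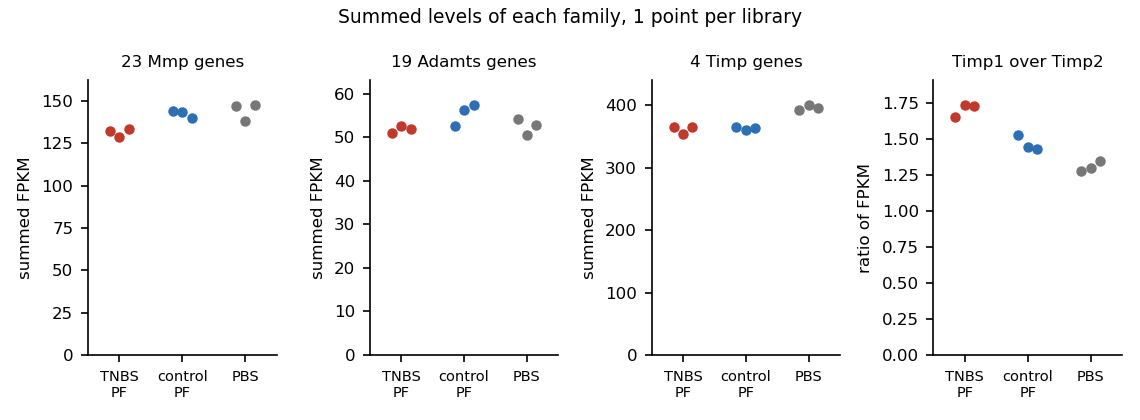
Summed FPKM of the 23 Mmp, 19 Adamts and 4 Timp genes and the ratio of Timp1 to Timp2 FPKM (y), with 1 point per library in TNBS PF, control PF and PBS. The Mmp sum of TNBS PF lies below both other groups, the Timp sum of PBS lies above both fluids, and the ratio separates all 3 groups.

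The 250 bases upstream of the RefSeq start of the 3 expressed inhibitors (GRCm38.p6) are shown because Timp2 and Timp3 were called and Timp1 was not. Capitals mark AGGAAG, a core bound by ETS factors, read on both strands together with TGANTCA for AP-1 and TATAAA for a TATA box, which do not overlap it.
Timp2, chr11:118355412-118355661, minus strand: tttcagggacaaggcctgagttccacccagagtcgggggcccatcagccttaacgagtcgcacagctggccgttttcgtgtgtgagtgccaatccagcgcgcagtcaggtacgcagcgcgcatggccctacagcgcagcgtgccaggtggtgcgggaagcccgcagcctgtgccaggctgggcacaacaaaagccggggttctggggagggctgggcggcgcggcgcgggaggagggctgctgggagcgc
Timp3, chr10:86300162-86300411, plus strand: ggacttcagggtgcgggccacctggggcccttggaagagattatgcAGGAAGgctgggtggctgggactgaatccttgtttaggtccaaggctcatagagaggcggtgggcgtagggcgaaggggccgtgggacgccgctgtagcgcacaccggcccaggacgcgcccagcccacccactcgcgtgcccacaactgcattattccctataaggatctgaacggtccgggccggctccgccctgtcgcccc
Timp1, chrX:20869916-20870165, plus strand: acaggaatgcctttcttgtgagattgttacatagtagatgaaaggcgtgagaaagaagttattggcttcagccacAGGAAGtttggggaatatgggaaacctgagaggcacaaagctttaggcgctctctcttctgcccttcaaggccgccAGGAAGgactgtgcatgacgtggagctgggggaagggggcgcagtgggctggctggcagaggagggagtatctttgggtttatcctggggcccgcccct
The window of Timp2 has none of the 3 motifs and a GC content of 68.0%, that of Timp3 has 1 ETS core and 65.6% GC, and that of Timp1 has 2 ETS cores and 54.4% GC. None of them holds the AP-1 or TATA letters. The RefSeq and GENCODE starts differ: the Timp2 window lies wholly inside the GENCODE gene given above, and 40 bases of the Timp3 window lie inside its gene. AGGAAG was found in 29.5% of 32851 promoter windows of this length in the reference, so these matches are a description and no evidence of binding.

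Of the gelatinases, which digest denatured collagen, Mmp2 stayed level and Mmp9 was lower with either fluid than with PBS. Mmp2 (chr8:92827291-92853420, plus strand), the most abundant protease of the family here, had 49.7, 49.7 and 50.8 FPKM in TNBS PF, 51.1, 50.4 and 49.9 FPKM in control PF and 52.9, 47.0 and 53.9 FPKM in PBS. The groups overlapped in all comparisons, with log2 differences of −0.01 to −0.03, and the sign of each turned under other settings given in the closing section. Mmp9 (chr2:164940780-164955850, plus strand), typical of myeloid cells as well as of stroma, had 3.06, 2.32 and 2.08 FPKM in TNBS PF, 2.74, 2.45 and 2.85 FPKM in control PF and 4.07, 3.87 and 4.25 FPKM in PBS. Every library with fluid was below every PBS library, while the 2 fluids overlapped. Mmp9 fell in TNBS PF against PBS (log2 difference −0.55, SE 0.09, adjusted p = 0.0013; 38.7% lower in mean FPKM) and in control PF against PBS (−0.46, SE 0.09, adjusted p = 0.0178; 34.1% lower). The call in control PF was lost without control PF 1 (adjusted p = 0.0571), control PF 2 (0.0702) or PBS 3 (0.0694), and without the filter on low values (0.0946). TNBS PF against control PF gave −0.08 (adjusted p = 0.608). The 10 neutrophil markers, among them Elane at 0, summed to 0.155 to 0.387 FPKM in TNBS PF, 0.260 to 0.328 FPKM in control PF and 0.0757 to 0.558 FPKM in PBS. Of the macrophage and monocyte markers, Cd14 rose in TNBS PF against PBS (0.19, adjusted p = 0.03), while Adgre1 and Itgam stayed under 0.016 FPKM. The part of either cell type in the Mmp9 values was not tested.

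Mmp14 encodes the main membrane-type MMP of stromal cells, a collagenase of the cell surface that also activates the precursor of MMP-2. It lies at chr14:54431612-54445364 on the plus strand and had 32.9, 31.6 and 32.7 FPKM in TNBS PF, 35.8, 33.7 and 34.7 FPKM in control PF and 38.0, 35.9 and 36.8 FPKM in PBS. The 3 groups did not overlap and stood in the same order as those of Timp2. Mmp14 fell in TNBS PF against PBS (log2 difference −0.18, SE 0.03, adjusted p = 0.00339; 12.2% lower), a call kept in all 18 alternatives. The differences were −0.10 (adjusted p = 0.0899) in TNBS PF against control PF and −0.08 (adjusted p = 0.26) in control PF against PBS. Mmp16, another membrane-type MMP, averaged 1.77 ± 0.0945 FPKM in TNBS PF, 1.90 ± 0.259 FPKM in control PF and 1.98 ± 0.233 FPKM in PBS (SD, n = 3 libraries each), and the groups overlapped throughout. The other members of the type, Mmp15 and Mmp24 and the lipid-anchored Mmp17 and Mmp25, had at most 0.306 FPKM in any library, which was Mmp25 in PBS 3.

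**Figure D4:**
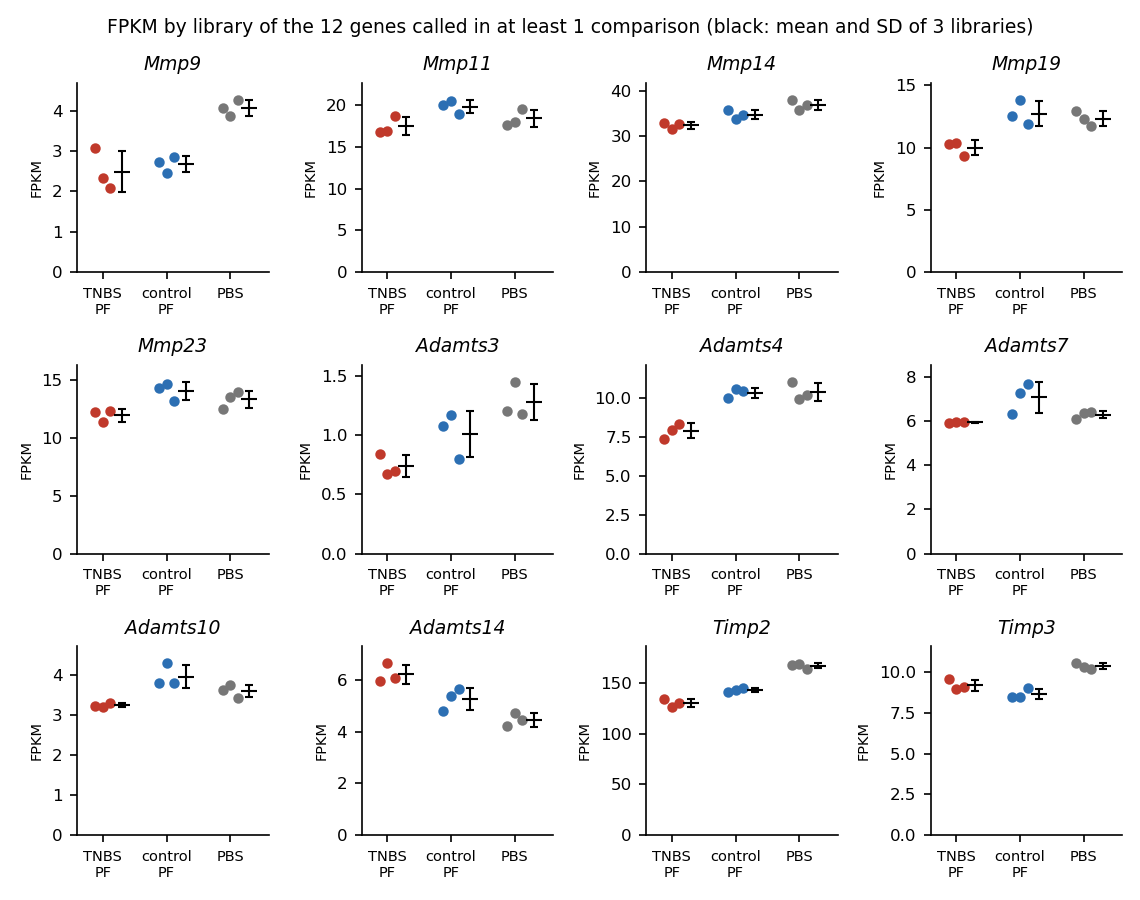
FPKM (y) by library of the 12 genes called in at least 1 comparison, with the mean and SD of the 3 libraries in black, for TNBS PF, control PF and PBS. Timp2, Mmp14 and Adamts14 step through the 3 groups in order, whereas Adamts4 and Mmp19 are lower in TNBS PF than in both other groups.

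Most collagenase and stromelysin genes of the mouse lie side by side on chromosome 9, where 10 Mmp genes span chr9:7272514-7699585. Of these only Mmp3 and Mmp13 were tested, 7 stayed under 0.1 FPKM in every library and 3 of the 7 were listed at 0. Mmp13, the interstitial collagenase of rodent stroma and cartilage, had 1.27, 0.731 and 1.24 FPKM in TNBS PF, 1.57, 1.35 and 2.00 FPKM in control PF and 1.70, 1.08 and 1.40 FPKM in PBS. TNBS PF lay below control PF in every library (log2 difference −0.35, SE 0.12, adjusted p = 0.0959) and overlapped PBS. The low level, 50 to 115 fragments a library, limits this gene, and limma with voom weights on recovered fragments called it at −0.63 (adjusted p = 0.0405). Mmp3, stromelysin-1, had 1.92, 2.10 and 2.28 FPKM in TNBS PF, 2.21, 2.09 and 1.94 FPKM in control PF and 3.48, 2.25 and 2.38 FPKM in PBS. The PBS mean is high through PBS 1, and no comparison passed (log2 difference −0.24, adjusted p = 0.129, in TNBS PF against PBS). Mmp10, stromelysin-2, missed the filter with 2 libraries at 1 FPKM or more. It had 1.18, 1.13 and 0.861 FPKM in TNBS PF, 0.761, 0.937 and 0.675 FPKM in control PF and 0.715, 0.743 and 0.457 FPKM in PBS, from 16 to 51 fragments a library. TNBS PF lay above PBS in every library, without overlap. Mmp10 had an adjusted p of 0.0362 in TNBS PF against PBS after conversion to TPM, where it passed the filter, and of 0.0607 without a filter.

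The upstream windows of these 3 genes are shown because they carry motifs that the inhibitors lack. Capitals mark the letters of the same 3 motifs.
Mmp13, chr9:7272264-7272513, plus strand: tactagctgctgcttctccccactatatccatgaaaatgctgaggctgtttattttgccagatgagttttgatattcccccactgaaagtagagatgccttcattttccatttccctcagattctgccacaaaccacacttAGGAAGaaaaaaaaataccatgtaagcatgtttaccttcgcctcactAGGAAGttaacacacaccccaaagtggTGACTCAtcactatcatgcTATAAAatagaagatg
Mmp3, chr9:7445572-7445821, plus strand: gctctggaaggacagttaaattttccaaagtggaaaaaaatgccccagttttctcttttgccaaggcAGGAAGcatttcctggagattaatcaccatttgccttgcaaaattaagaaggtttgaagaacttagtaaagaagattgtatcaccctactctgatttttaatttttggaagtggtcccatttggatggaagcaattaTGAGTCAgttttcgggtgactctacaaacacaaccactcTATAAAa
Mmp10, chr9:7502092-7502341, plus strand: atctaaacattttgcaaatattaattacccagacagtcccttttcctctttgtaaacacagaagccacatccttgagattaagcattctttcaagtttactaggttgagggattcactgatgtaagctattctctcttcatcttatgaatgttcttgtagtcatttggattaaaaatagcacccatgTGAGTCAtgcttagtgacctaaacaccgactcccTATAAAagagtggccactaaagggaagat
The AP-1 letters begin 35, 46 and 63 bases before the start of Mmp13, Mmp3 and Mmp10, and the TATA letters 16, 7 and 29 bases before it. Of the 12 windows of the 10 clustered genes, 8 hold the AP-1 letters and 7 the TATA letters, where 6.75% and 12.4% of all 32851 windows do. Of the other 23 windows of the families 0 hold the AP-1 letters and 2 the TATA letters. RefSeq windows were found for 32 of the 46 genes, and 14 of the 35 windows reach into the GENCODE span of their gene, 5 of them wholly. The letters were present upstream of genes listed at 0, such as Mmp7 and Mmp20, as well as of Mmp3 and Mmp13.

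**Figure D5:**
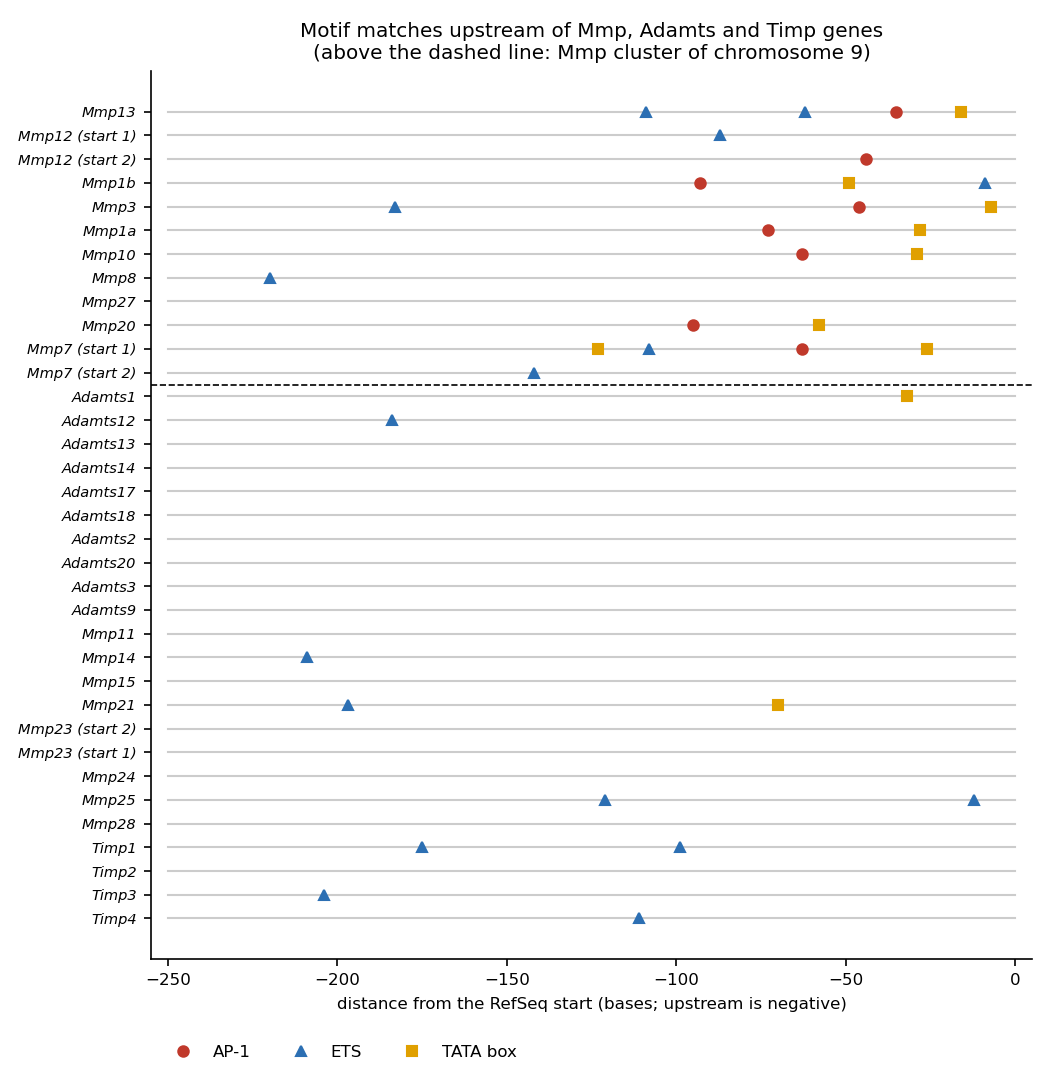
Position of AP-1, ETS and TATA letters in the 250 bases upstream of the RefSeq start (x, in bases) for 35 windows of 32 genes (y), with the windows of the chromosome 9 Mmp cluster above the dashed line. AP-1 letters appear in 8 of the 12 windows above the line and in 0 of the 23 below it.

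Of the remaining secreted and membrane MMPs, 3 fell in TNBS PF against control PF. Mmp19, a secreted MMP with a broad range of basement membrane substrates, lies at chr10:128790910-128800824 on the plus strand. It had 10.3, 10.4 and 9.32 FPKM in TNBS PF, 12.5, 13.8 and 11.9 FPKM in control PF and 13.0, 12.3 and 11.8 FPKM in PBS. TNBS PF was below both other groups in every library, and control PF and PBS overlapped. The log2 difference was −0.32 (SE 0.06, adjusted p = 0.00376) in TNBS PF against control PF and −0.28 (SE 0.06, adjusted p = 0.00581) in TNBS PF against PBS, and both calls held in all 18 alternatives. Tmem198b overlaps 789 of the 3533 exon bases of Mmp19 on the opposite strand. The sources used here do not give the strand of the libraries, so reads of the shared bases cannot be told apart. Tmem198b averaged 4.65 FPKM, and its own log2 difference was −0.07 (adjusted p = 0.532) in TNBS PF against control PF.

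Mmp23, an MMP anchored by its amino-terminal end and released by furin-type cleavage, lies at chr4:155650655-155653384 on the minus strand and had 12.3, 11.4 and 12.3 FPKM in TNBS PF, 14.4, 14.7 and 13.2 FPKM in control PF and 12.5, 13.5 and 14.03 FPKM in PBS. TNBS PF lay below both other groups, with log2 differences of −0.22 against control PF (SE 0.05, adjusted p = 0.0187) and −0.14 against PBS (adjusted p = 0.0799). The call was lost without TNBS PF 2 (adjusted p = 0.0834), control PF 1 (0.0606) or control PF 2 (0.0783), and without the filter (0.0578). Mmp11, stromelysin-3, which is activated inside the cell by furin, lies at chr10:75923222-75936496 on the minus strand and had 16.8, 16.9 and 18.7 FPKM in TNBS PF, 20.02, 20.5 and 18.97 FPKM in control PF and 17.6, 18.0 and 19.6 FPKM in PBS. Its log2 difference was −0.17 (SE 0.05, adjusted p = 0.0456) in TNBS PF against control PF, the weakest call of the 7, while TNBS PF and PBS overlapped. That call was lost without TNBS PF 1 (adjusted p = 0.154), TNBS PF 2 (0.151), control PF 1 (0.110), control PF 2 (0.150) or control PF 3 (0.0517), and also without the filter (0.109), with median-ratio scaling (0.0641) and without a variance trend (0.0821). Mmp28, epilysin, missed the filter with 2 libraries at 1 FPKM or more and averaged 0.898 ± 0.158 FPKM in TNBS PF, 0.997 ± 0.145 FPKM in control PF and 0.963 ± 0.154 FPKM in PBS (SD, n = 3 libraries each).

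The ADAMTS proteases that trim aggrecan and versican are represented by Adamts4, Adamts5, Adamts1 and Adamts9. Adamts4, the first aggrecanase described, lies at chr1:171250421-171260637 on the plus strand. It had 7.38, 7.96 and 8.36 FPKM in TNBS PF, 9.98, 10.6 and 10.4 FPKM in control PF and 11.1, 9.93 and 10.2 FPKM in PBS. TNBS PF was below both other groups in every library, and control PF and PBS overlapped. Adamts4 fell in TNBS PF against control PF (log2 difference −0.35, SE 0.05, adjusted p = 0.00112; 23.5% lower) and against PBS (−0.36, SE 0.05, adjusted p = 0.000672; 24.0% lower), and control PF against PBS gave −0.01 (adjusted p = 0.967). Both calls held in all 18 alternatives.

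The other proteoglycanases were not called. Adamts5, the main aggrecanase of mouse cartilage, averaged 6.97 ± 0.0672 FPKM in TNBS PF, 7.16 ± 0.474 FPKM in control PF and 6.46 ± 0.334 FPKM in PBS (SD, n = 3 libraries each). Adamts1 averaged 7.87 ± 0.375 FPKM in TNBS PF, 7.79 ± 0.421 FPKM in control PF and 7.31 ± 0.906 FPKM in PBS. Adamts9 averaged 2.00 ± 0.0479 FPKM in TNBS PF, 1.86 ± 0.0478 FPKM in control PF and 1.80 ± 0.329 FPKM in PBS. Adamts1 and Adamts5 are neighbours on chromosome 16. The adjusted p-values of these 3 genes were between 0.251 and 0.930 in the 3 comparisons, and the log2 differences of TNBS PF against control PF were −0.03 for Adamts5, 0.01 for Adamts1 and 0.07 for Adamts9.

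The ADAMTS proteases that remove the amino-terminal propeptide of fibrillar procollagens are encoded by Adamts2, Adamts3 and Adamts14, and in TNBS PF against PBS Adamts14 rose while Adamts3 fell. Adamts14 (chr10:61197112-61273438, minus strand) had 5.96, 6.65 and 6.08 FPKM in TNBS PF, 4.82, 5.37 and 5.65 FPKM in control PF and 4.21, 4.74 and 4.44 FPKM in PBS. The 3 groups did not overlap, with TNBS PF highest and PBS lowest. Adamts14 rose in TNBS PF against PBS (log2 difference 0.40, SE 0.06, adjusted p = 0.000971), the one rise among the called genes, which held in all 18 alternatives. The difference was 0.20 (SE 0.06, adjusted p = 0.0586) in TNBS PF against control PF, where 4 of the 18 alternatives called it, and 0.20 (adjusted p = 0.134) in control PF against PBS.

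Adamts3 (chr5:89677087-89883334, minus strand), which also processes the precursor of VEGF-C, had 0.844, 0.676 and 0.699 FPKM in TNBS PF, 1.08, 1.17 and 0.796 FPKM in control PF and 1.21, 1.45 and 1.18 FPKM in PBS. TNBS PF was below PBS in every library and overlapped control PF. Adamts3 fell in TNBS PF against PBS (log2 difference −0.39, SE 0.09, adjusted p = 0.00848; 42.2% lower in mean FPKM). The added 1 FPKM understates the change of so low a gene: with 0.1 FPKM added the difference was −0.72, after conversion to TPM −0.63 and with voom on recovered fragments −0.77. Adamts3 passed the filter on low values with PBS and control PF libraries alone, so a fall was the direction the filter favoured. Adamts2, the enzyme lost in dermatosparaxis of cattle and humans, averaged 2.64 ± 0.0748 FPKM in TNBS PF, 2.84 ± 0.0999 FPKM in control PF and 3.05 ± 0.253 FPKM in PBS (SD, n = 3 libraries each), with −0.15 (adjusted p = 0.111) in TNBS PF against PBS. Adamts14 made up 63.1, 67.2 and 64.0% of the summed FPKM of these 3 genes in TNBS PF, 55.1, 57.9 and 60.3% in control PF and 49.4, 52.8 and 49.9% in PBS. The sum itself was 9.45, 9.90 and 9.49 FPKM in TNBS PF, 8.76, 9.27 and 9.37 FPKM in control PF and 8.52, 8.97 and 8.89 FPKM in PBS.

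Of the other expressed Adamts genes, Adamts7 and Adamts10 fell in TNBS PF against control PF. Adamts7, which cleaves cartilage oligomeric matrix protein (COMP), lies at chr9:90163069-90208071 on the plus strand and had 5.92, 5.97 and 5.95 FPKM in TNBS PF, 6.32, 7.26 and 7.69 FPKM in control PF and 6.12, 6.36 and 6.43 FPKM in PBS. The log2 difference from control PF was −0.22 (SE 0.06, adjusted p = 0.0362), and from PBS −0.07 (adjusted p = 0.447). The call was lost without TNBS PF 1 (adjusted p = 0.0969), TNBS PF 2 (0.0912), TNBS PF 3 (0.0954), control PF 2 (0.112) or control PF 3 (0.139), without the filter (0.0858) and with quantile normalization (0.0559). Tbc1d2b shares 122 of the 6282 exon bases of Adamts7 (1.94%) on the opposite strand, and reads of these bases cannot be told apart. Tbc1d2b averaged 6.99 FPKM in TNBS PF and 8.38 FPKM in control PF. It fell as well in TNBS PF against control PF (log2 difference −0.23, adjusted p = 0.00934). The part of the shared bases in the Adamts7 values was not tested.

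Adamts10, tied to fibrillin microfibrils by its mutation in Weill-Marchesani syndrome in humans, lies at chr17:33524204-33553782 on the plus strand and had 3.22, 3.20 and 3.30 FPKM in TNBS PF, 3.78, 4.29 and 3.78 FPKM in control PF and 3.62, 3.74 and 3.43 FPKM in PBS. TNBS PF was below both other groups in every library, with log2 differences of −0.22 against control PF (SE 0.06, adjusted p = 0.0295) and −0.12 against PBS (adjusted p = 0.2). The call was lost without TNBS PF 1 (adjusted p = 0.0860), TNBS PF 2 (0.0912), TNBS PF 3 (0.0703) or control PF 2 (0.120), and without the filter (0.0608). Adamts6, the nearest relative of Adamts10, averaged 6.99 ± 0.0348 FPKM in TNBS PF, 6.66 ± 0.509 FPKM in control PF and 6.30 ± 0.593 FPKM in PBS (SD, n = 3 libraries each), with overlap in every comparison. Adamts12, the relative of Adamts7, averaged 1.26 ± 0.145 FPKM in TNBS PF, 1.35 ± 0.0902 FPKM in control PF and 1.45 ± 0.162 FPKM in PBS, again with overlap.

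The genes at or near 0 complete the families. Mmp8, the neutrophil collagenase, Mmp7, matrilysin of epithelia, Mmp20, enamelysin of teeth, Mmp21 and Adamts18 were listed at 0 in every library. Mmp12, the macrophage elastase, had at most 0.0257 FPKM, Mmp1a at most 0.0462 FPKM and Mmp1b at most 0.0301 FPKM, where Mmp12 and Mmp1b overlap on opposite strands. Mmp15, Mmp24 and Mmp27 had at most 0.0729, 0.0478 and 0.0973 FPKM, and Mmp17 0.0731 to 0.143 FPKM. The Adamts genes in this range were Adamts8, Adamts13 (the von Willebrand factor protease), Adamts15, Adamts16, Adamts17, Adamts19 and Adamts20, with at most 0.0508 FPKM in any library, in Adamts8. At these depths 1 fragment in 1 kb was worth 0.0391 to 0.056 FPKM, so such values rest on few fragments. Mmp17 had 9 to 24 fragments a library. None of these genes passed the filter, so differences between groups were not tested in the main fit.

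Genes that act with these proteases were counted from 5 lists. Of 18 tested genes of activation and clearance, 3 rose and 3 fell in TNBS PF against control PF, where 10.6% of all tested genes were called. Of the 18, 3 rose and 6 fell in TNBS PF against PBS, where 16.7% of all tested genes were called, and 0 rose and 2 fell in control PF against PBS, where 2.15% were. The median log2 differences were 0.02, −0.08 and −0.13, against −0.01, −0.01 and 0.00 over all tested genes. Plaur, the urokinase receptor, averaged 13.9 FPKM in TNBS PF and 9.77 FPKM in control PF (log2 difference 0.46, adjusted p = 0.000152). Cd44, a docking protein for MMP-9, averaged 89.4 FPKM in TNBS PF, 77.0 FPKM in control PF and 89.5 FPKM in PBS. It rose by 0.21 in TNBS PF against control PF (adjusted p = 0.000456) and was level with PBS (−0.0015, adjusted p = 0.98). Thbs2, thrombospondin-2, which binds MMP-2 for uptake into the cell, fell in TNBS PF against control PF (−0.48, adjusted p = 1.13e-05) and against PBS (−0.62, adjusted p = 9.62e-07). The other falls against control PF, named after their values were seen, were in Plat, tissue plasminogen activator (−0.20, adjusted p = 0.0175), and Reck, a membrane inhibitor of MMPs (−0.19, adjusted p = 0.0454). Against PBS, Serpine2 fell by 0.38 and Thbs1 by 0.36 in TNBS PF, and control PF had falls in Thbs1 (−0.43) and Cd44 (−0.21).

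Of 16 tested matrix substrates, 0 rose and 6 fell in TNBS PF against control PF, where 5.45% of all tested genes fell. In TNBS PF against PBS 0 rose and 7 fell, where 8.88% of all tested genes fell, and in control PF against PBS 1 rose and 2 fell, where 1.02% rose and 1.14% fell. The median log2 differences were −0.07, −0.09 and −0.08. Col3a1, type III collagen, averaged 26.9 FPKM in TNBS PF, 38.3 FPKM in control PF and 46.7 FPKM in PBS, and fell in all 3 comparisons (−0.49, −0.77 and −0.28, with a largest adjusted p of 0.00139). The falls in TNBS PF against control PF also took in Fbn1 (fibrillin-1, −0.24), Vcan (versican, −0.19) and Col1a2 (−0.19), and those against PBS Fn1 (fibronectin, −0.30), Col1a2 (−0.29) and Fbn1 (−0.26). Vcan rose by 0.20 in control PF against PBS, where Fn1 fell by 0.28. Col1a1 and Col1a2 are also among the 10 stromal markers, of which 2 rose and 4 fell in TNBS PF against control PF. There 5.15% of all tested genes rose and 5.45% fell.

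Of 17 tested transcription factors known to act on MMP promoters, 2 rose and 0 fell in TNBS PF against control PF. In both directions together this is near the 10.6% of all tested genes called there, 5.15% higher and 5.45% lower. In TNBS PF against PBS 4 rose and 0 fell, where 16.7% of all tested genes were called, 7.8% higher and 8.88% lower. The medians were 0.01 and −0.001. Etv4 averaged 19.4 FPKM in TNBS PF, 14.8 FPKM in control PF and 14.8 FPKM in PBS (0.37 against control PF, adjusted p = 0.000507; 0.37 against PBS, adjusted p = 0.000314). Etv5 rose by 0.29 and 0.25 in the same comparisons, and Fosl1 (0.32, adjusted p = 0.0469) and Elk3 (0.12, adjusted p = 0.0224) passed in TNBS PF against PBS. In control PF against PBS 0 passed, and Elk3 had the smallest p (0.09, adjusted p = 0.164). Of 8 tested metzincins outside the families, Adam19 rose in TNBS PF against control PF (0.27, adjusted p = 0.00185) and against PBS (0.31, adjusted p = 0.000542). Adam10, a main sheddase, fell in TNBS PF against PBS (−0.13, adjusted p = 0.00929). No other of the 8 was called, where 10.6% of all tested genes were called against control PF and 16.7% against PBS. In control PF against PBS, where 2.15% of all tested genes were called, 0 passed, with Adam12 nearest (−0.11, adjusted p = 0.416). Of 3 tested Adamts-like genes 0 passed in any comparison, a set too small to read against these shares. Adamtsl4 had the smallest p against PBS, with 0.16 (adjusted p = 0.128) in TNBS PF and 0.22 (adjusted p = 0.117) in control PF, and Adamtsl1 in TNBS PF against control PF (−0.09, adjusted p = 0.408).

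The authors' deposited table marks 61 genes as changed in TNBS PF against control PF, 88 in TNBS PF against PBS and 42 in control PF against PBS, where the smallest change marked was 1.002 in absolute log2. Of the 46 genes 0 are marked in the authors' deposited table. A p-value under 0.05 stands in the authors' deposited table for 12, 12 and 5 of the 40 family genes that have one in these comparisons, where 15.7, 17.7 and 6.84% of all genes with a p-value are under 0.05.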

How the data were processed

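RNA of 9 libraries of a mouse bone marrow stromal cell line was sequenced, 3 each in TNBS PF, control PF and PBS, and the groups were taken from the labels. Trizol was used to isolate total RNA, per the labels' protocols. Per the submitters' processing notes, cutadapt 1.15 and the build mm10 were used. The aligner, the counting program and the library strand were not given in the sources used here.

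Per the file headers, 1 table deposited by the authors holds FPKM per library for 21959 genes. The authors also gave group means, a log2 fold change and a p-value for each pair of groups, per the file headers, by a test that no source names. These columns were only counted. Of values under 1000 fragments, 97.2 to 97.3% came out within 0.01 of a whole number of fragments when the deposited FPKM were multiplied by GENCODE M21 exon lengths, which gave the depth.

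FPKM were tested as log2(FPKM + 1) for the 10537 genes with at least 1 FPKM in at least 3 libraries, in limma 3.58.1 (R 4.3.3) with a variance trend over all 9 libraries. P-values were adjusted by Benjamini-Hochberg over all tested genes, with a threshold of 0.05. The median SE of a log2 difference was 0.0545. Fold changes are on the log2(FPKM + 1) scale, which understates changes of low genes. The procedure was tested on simulated data, drawn independently for each library. That test does not cover spread shared between libraries or the depth that moved with the group. There were 18 alternatives: 0.1 FPKM added, no filter, TPM, median-ratio or quantile scaling, only the 2 groups compared, no variance trend, limma with voom weights on recovered fragments, the replicate number as a block, and each library left out.

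All tested members are named, and those past the threshold are given in full. From each list, up to 4 called genes with the largest differences are named per comparison, or the gene of smallest p. Some genes the rule would name are not reported here. The members and lists were chosen with earlier results of these data known. Upstream sequences and gene positions come from RefSeq (GRCm38.p6) and GENCODE M21, both of the mm10 build, and 14 of the 46 genes had no RefSeq window.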

Additional observations from a re-analysis of the deposited data

How the results depend on the processing

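Of 18 alternatives, all kept both TNBS PF calls of Adamts4 and of Mmp19, of Timp2, Mmp9, Mmp14, Adamts3 and Adamts14 in TNBS PF against PBS, and of Timp2 in control PF against PBS. Adamts3 passed the filter through PBS and control PF libraries alone, which favours a fall, and without the filter its adjusted p in limma was 0.022. The calls of Timp3, Mmp9 in control PF against PBS, Timp2 in TNBS PF against control PF, and Mmp23, Mmp11, Adamts7 and Adamts10 were each lost in at least 1, with the adjusted p given beside each gene or, for the replicate block, below. The cause was not tested. In TNBS PF against control PF the number of called family genes was 7 of 23. Without the filter it was 3 of 41, where 784 of 16193 genes were called over all. With 1 library left out it was 2 to 7. In TNBS PF against PBS it was 7 to 8 with 1 library left out, and in control PF against PBS 1 to 3. Over all genes, leaving out 1 library gave 661 to 1255 calls in TNBS PF against control PF, 1148 to 1735 in TNBS PF against PBS and 115 to 311 in control PF against PBS, where the full data gave 1117, 1758 and 227. Control PF against PBS had 103 calls over all genes without the filter, 117 without a variance trend and 375 with voom. TPM scaling split the calls over all genes in TNBS PF against PBS into 606 higher and 1160 lower, where the main scaling gave 822 and 936.

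Gains past the threshold were Adamts14 in TNBS PF against control PF (adjusted p = 0.0451 with median-ratio, 0.0406 with quantile, 0.0135 with voom and 0.0448 with the block), Mmp13 there (0.0405 with voom, 0.0274 with the block), Mmp23 in TNBS PF against PBS (0.0451 with TPM, 0.0415 without PBS 1) and Adamts2 there (0.04998 with voom). Log2 differences that turned sign were all in comparisons where the gene was not called. Mmp2 in TNBS PF against control PF was 0.0027 with median-ratio scaling and 0.0025 with voom, and Timp1 in TNBS PF against PBS was −0.052 with quantile normalization. With 1 library left out, TNBS PF against control PF ranged from −0.0095 to 0.053 for Adamts1, −0.078 to 0.0054 for Adamts5 and −0.030 to 0.052 for Mmp3, and Mmp2 in TNBS PF against PBS ranged from −0.092 to 0.0053. Control PF against PBS ranged from −0.036 to 0.034 for Adamts4, −0.024 to 0.13 for Adamts9, −0.098 to 0.033 for Mmp16, −0.015 to 0.086 for Mmp19 and −0.080 to 0.017 for Mmp2.

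The replicate number was tried as a block because the groups share the numbers 1 to 3. With the replicate block TNBS PF against control PF had 8 calls among the family genes and 906 over all genes, TNBS PF against PBS had 8 and 1537, and control PF against PBS had 3 and 169. Mmp11 in TNBS PF against control PF then had an adjusted p of 0.0603. Deviations from the group means correlated at −0.0978 to 0.0746 for libraries of the same number and at −0.0750 to 0.0776 for the others. Over all tested genes, libraries of the same number thus did not deviate together more than the others. The labels do not say what the number marks, and a step shared by such libraries that acts on some genes was not tested. Depth limits the 19 genes under 0.1 FPKM, and Adamts3 in TNBS PF against control PF had no value where fewer than 3 of the 6 libraries reached the filter.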
